A study of Arabidopsis thaliana with 6 samples.

Results

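The 10 genes described here are GRX480, AT5G52740, AT5G52750, AT5G52760, AT3G18250, AT1G35710, AT1G13470, AT3G28510, AT3G60470 and AT5G55450, grouped as genes that respond to the plant hormone salicylate. They were picked from the 13333 genes with a named probe set on the array, and they were picked with their mutant and wild-type values already known. Their levels and differences are therefore given as a description, and no p-value is given for any of them. Each has 1 probe set, and 0 of the 10 probe sets carry a suffix that marks possible cross-hybridisation. The samples are leaves of 15-day-old Arabidopsis thaliana seedlings, 3 of the chr11-1 chr17-1 double mutant and 3 of the wild type Col-0. All plants were untreated and grown at 21 °C with 16 h of light and 8 h of dark. RNA of each sample was hybridised to 1 single-colour ATH1 array, and each probe set has 1 log2 expression level an array. CHR11 and CHR17 encode ATPases of the ISWI type, which slide nucleosomes along DNA, and no sample of either single mutant was analysed here.

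Salicylate accumulates in leaves attacked by biotrophic pathogens. It is sensed by NPR proteins, which act with TGA transcription factors on the promoters of defence genes, while WRKY factors act on many of the same genes. GRX480, also called ROXY19, is a glutaredoxin of the plant-specific CC type that binds TGA factors, and in Arabidopsis its overproduction represses the jasmonate-responsive gene PDF1.2. The other 9 genes are listed in the tables used here by locus code alone. As general background, AT5G52740, AT5G52750 and AT5G52760 encode small proteins with a heavy-metal-associated domain, AT1G35710 a receptor-like kinase with leucine-rich repeats, AT3G28510 an AAA-type ATPase and AT5G55450 a protein of the lipid-transfer family. AT1G13470 and AT3G60470 encode proteins with domains of unknown function (DUF1262 and DUF247). No salicylate was applied or measured in these samples, so whether the 10 genes respond to it was not tested here.

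Array medians lay between 4.73 and 4.77 over the 22746 probe sets tested, and 30% of probe sets had a mean level at or below 4.02, which is used here to mark dim signal. The leaf genes RCA, LHCB4.1 and LHCB4.2 had means of 13.67, 13.50 and 13.50 in the mutant and 13.90, 13.59 and 12.95 in wild type. The 5 measured markers of root hairs, anthers and the shoot meristem had means of 3.65 to 4.28 in the mutant and 3.65 to 4.25 in wild type. CHR17 had levels of 5.33, 4.91 and 5.11 in the mutant arrays, against 4.57, 4.92 and 4.84 in the wild-type arrays, and the difference of 0.34 did not pass the limma test (adjusted p = 0.0832). Where its probes lie relative to the mutation is not stated in the labels, so CHR17 does not check them, and CHR11 was not analysed here. Among the 64 Affymetrix controls, 56 read higher on the mutant arrays, by 0.22 on the log2 scale at the median. Nothing in the labels says whether arrays of 1 genotype came from separate plantings, so p-values cover the spread between these arrays, which may be technical. In whole leaves, fewer cells of a type and less RNA per cell cannot be told apart.

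Of the 10 genes, 5 had a mean at least 2-fold higher in the double mutant, 4 were higher by a smaller amount and 1 was lower. Among all probe sets, 2.74% had a mean at least 2-fold higher. Differences of the 10 genes, mutant minus wild type on the log2 scale, ran from -0.54 for AT5G55450 to 2.37 for AT5G52760, with a median of 0.73, against a median of -0.0028 over all probe sets. The 3 mutant arrays lay entirely above the wild-type arrays for 7 genes and entirely below them for 1, as they did for 19.4% and 20.1% of all probe sets (39.5% together). In the limma fit over all probe sets, 6 of the 10 were past an adjusted p of 0.05 as higher and 1 as lower, beside 14.0% and 14.7% of all probe sets (28.6% together). Because this contrast was known when the genes were picked, none of these counts, shares and medians is a test of the 10 genes. They say nothing about salicylate-responsive genes in general.

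**Figure D1:**
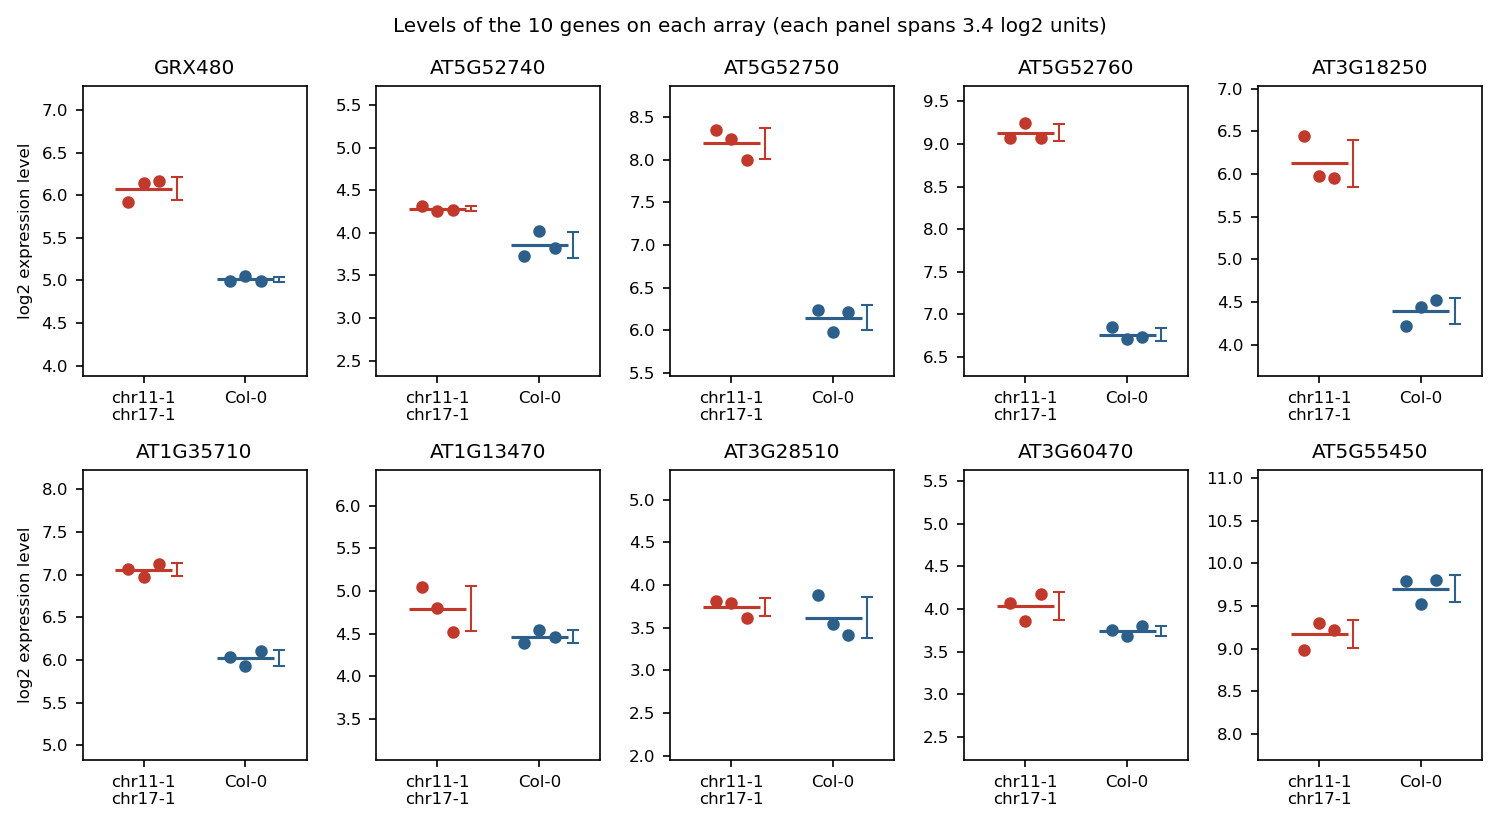
Log2 expression level of each of the 10 genes (vertical axis, of the same span in every panel) in the 3 chr11-1 chr17-1 arrays (left, red) and the 3 Col-0 arrays (right, blue), with a line at the mean and a bar of 1 SD on either side. The genotypes stand far apart for GRX480, AT5G52750, AT5G52760, AT3G18250 and AT1G35710, their points overlap for AT1G13470 and AT3G28510, and AT5G55450 is the 1 gene with its mutant points below wild type.

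GRX480 had log2 levels of 5.92, 6.14 and 6.17 in the mutant arrays, against 4.991, 5.047 and 4.9995 in the wild-type arrays. Every mutant array lay at least 0.87 above the highest wild-type array. The means were 6.08 ± 0.14 in the mutant and 5.01 ± 0.03 in wild type (SD, n = 3 each), a 2.09-fold difference (1.06 on the log2 scale, SE 0.10). Of the 13333 genes, 260 had a larger difference. Of 8 glutaredoxins listed by that word in the gene table, 2 were measured, and both rose in the limma fit, beside 14.0% of all probe sets. Both lay above the lowest 30% of probe sets, where 40.2% passed in either direction. Their differences were smaller than that of GRX480, which was picked with its difference known, so this ranks nothing within the family. GRXC1, a glutaredoxin of the classical CPYC type, rose by 0.56 (8.64 ± 0.05 in the mutant and 8.08 ± 0.05 in wild type, SD, n = 3 each; limma adjusted p = 0.000644). GRXC2, of the same type, rose by 0.41 (limma adjusted p = 0.0155), a call that was lost without wild-type replicate 1 (0.31, adjusted p = 0.0530). The CC-type genes ROXY1 and ROXY2, relatives of GRX480 that act in flower development and were added after values were seen, had differences of -0.04 and -0.17.

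AT5G52740, AT5G52750 and AT5G52760 follow each other along chromosome 5 with no other protein-coding gene between them. AT5G52760 had the largest difference of the 10 genes. Its levels were 9.07, 9.25 and 9.07 in the mutant arrays, against 6.85, 6.71 and 6.73 in the wild-type arrays. The gap between the lowest mutant and the highest wild-type array was 2.22. Its means were 9.13 ± 0.10 in the mutant and 6.76 ± 0.08 in wild type (SD, n = 3 each), a 5.17-fold difference (2.37, SE 0.09), and 26 of the 13333 genes had a larger one.

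AT5G52750 read 8.34, 8.25 and 7.99 in the mutant arrays and 6.24, 5.98 and 6.22 in the wild-type arrays. These sets stood 1.75 apart at their closest. The means of 8.19 ± 0.18 in the mutant and 6.15 ± 0.14 in wild type (SD, n = 3 each) differed 4.13-fold (SE 0.12 on the log2 scale), and 44 genes had a larger difference. AT5G52740, the first of the 3 in gene order, differed least. It read 4.31, 4.26 and 4.27 in the mutant arrays, against 3.73, 4.02 and 3.82 in the wild-type arrays, so its 3 wild-type values lay near or below the bound for dim signal. The means were 4.28 ± 0.03 in the mutant and 3.86 ± 0.15 in wild type (SD, n = 3 each), a difference of 0.42 (SE 0.10), or 1.34-fold. For a probe set this dim a fold of array signal can understate a fold of transcript, and the part of dim signal in the smaller difference was not tested.

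The genes around these 3 were taken by position and were tested. Of the 6 measured neighbours, 3 on either side, 0 rose and 1 fell in the limma fit, beside 14.0% and 14.7% of all probe sets. Of the 6, 4 lay in the lowest 30% of probe sets, where 1.70% passed in either direction. AT5G52780 fell by 0.50 on the log2 scale (9.27 ± 0.14 in the mutant and 9.76 ± 0.14 in wild type, SD, n = 3 each; limma adjusted p = 0.00564). AT5G52770, which lies directly beside AT5G52760, had a difference of 0.06 with overlapping arrays (limma adjusted p = 0.852). On the other side, AT5G52720 had 0.28, with mutant levels of 3.816, 3.823 and 4.097 against wild-type levels of 3.66, 3.74 and 3.51, and did not pass (limma adjusted p = 0.0891, or 0.0373 with a trended robust prior). AT5G52710 had -0.23 (limma adjusted p = 0.120), AT5G52690 had -0.04 and AT5G52790 had 0.04. AT5G52730, between AT5G52720 and AT5G52740, has no named probe set here.

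**Figure D2:**
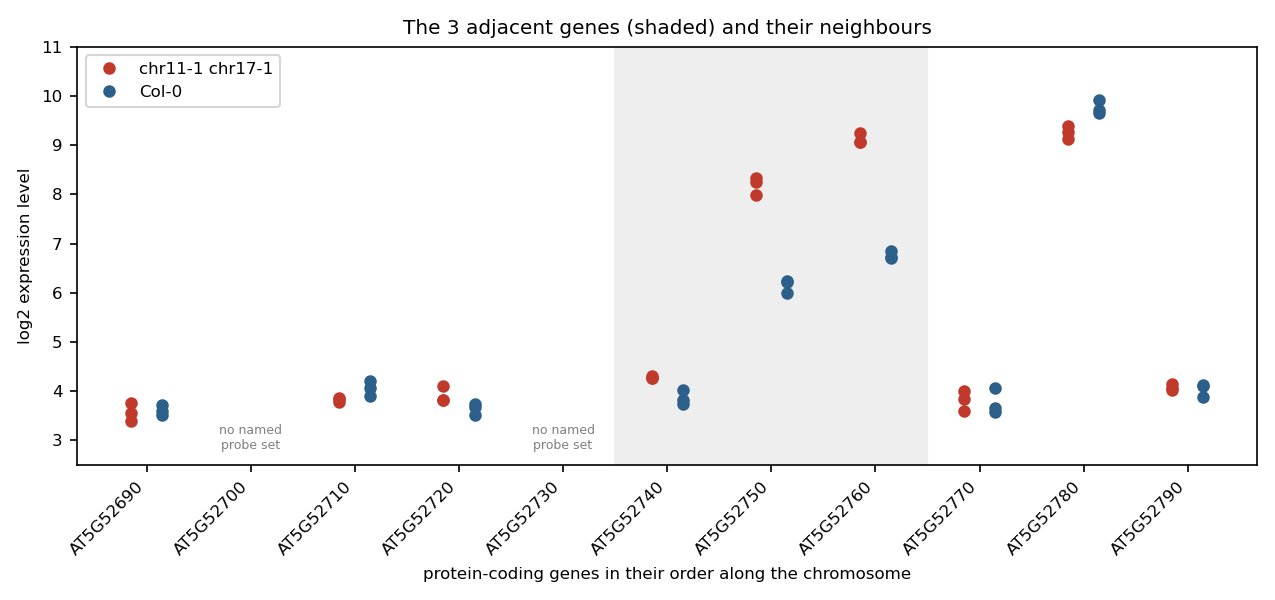
Log2 expression level (vertical axis) on each array for the protein-coding genes from AT5G52690 to AT5G52790 in their order along the chromosome (horizontal axis), with chr11-1 chr17-1 arrays in red left of Col-0 arrays in blue. In the shaded stretch AT5G52750 and AT5G52760 stand 1.75 and 2.22 clear of wild type, AT5G52740 shows a small gap at a dim level, and AT5G52780 lies below wild type; levels of different genes are not comparable, since each probe set has its own response.

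AT3G18250 had levels of 6.44, 5.98 and 5.95 in the mutant arrays, against 4.22, 4.44 and 4.52 in the wild-type arrays. Mutant replicate 1 stood above the other mutant arrays, and the genotypes were 1.43 apart at their closest. The means were 6.12 ± 0.27 in the mutant and 4.39 ± 0.15 in wild type (SD, n = 3 each), a 3.32-fold difference (1.73, SE 0.14). The wild-type level lay below the array medians. AT1G35710, the receptor-like kinase gene, read 7.07, 6.98 and 7.13 in the mutant arrays and 6.04, 5.93 and 6.11 in the wild-type arrays. Its genotypes did not overlap, and its replicates were among the tightest of the 10 genes. Its means of 7.06 ± 0.08 in the mutant and 6.03 ± 0.09 in wild type (SD, n = 3 each) differed 2.05-fold (1.03, SE 0.09), close in size to GRX480.

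The differences of 3 genes were within about 3 of their standard errors. AT1G13470 read 5.05, 4.80 and 4.52 in the mutant arrays, against 4.39, 4.54 and 4.46 in the wild-type arrays. Mutant replicate 3 fell inside the wild-type range, and the mutant SD of 0.26 was wider than the wild-type SD of 0.08. The difference of 0.33 (SE 0.13) became 0.20 without mutant replicate 1 and 0.46 without mutant replicate 3. AT1G13540, the other measured gene of the DUF1262 family, had -0.06 (limma adjusted p = 0.719). It was dim, with means of 3.54 in the mutant and 3.60 in wild type, so a change could be missed.

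AT3G60470 read 4.08, 3.86 and 4.18 in the mutant arrays and 3.75, 3.68 and 3.80 in the wild-type arrays. The arrays did not overlap, but the closest values were 0.06 apart, and the difference was 0.29 (SE 0.10). AT3G28510 read 3.81, 3.79 and 3.61 in the mutant arrays and 3.88, 3.55 and 3.41 in the wild-type arrays, which overlapped widely. Its difference of 0.12 (SE 0.13) became 0.02 without wild-type replicate 3 and 0.26 without wild-type replicate 1. Both genes lay in the lowest 30% of probe sets, of which 1.70% passed the limma test in either direction, against 40.2% of the others. Differences of 0.12 to 0.33 are also close to the median of 0.22 among the array controls, whose part in them was not tested. Not passing does not show that their transcripts did not change.

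AT5G55450, the lipid-transfer family gene, was the 1 member that was lower in the mutant. It read 8.98, 9.30 and 9.22 in the mutant arrays, against 9.79, 9.52 and 9.81 in the wild-type arrays. The highest mutant array lay 0.22 below the lowest wild-type array. The means were 9.17 ± 0.17 in the mutant and 9.70 ± 0.16 in wild type (SD, n = 3 each), a difference of -0.54 (SE 0.12), which makes the mutant 1.45-fold lower. Of the 13333 genes, 975 had a more negative difference. It was far above the bound for dim signal on every array.

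**Figure D3:**
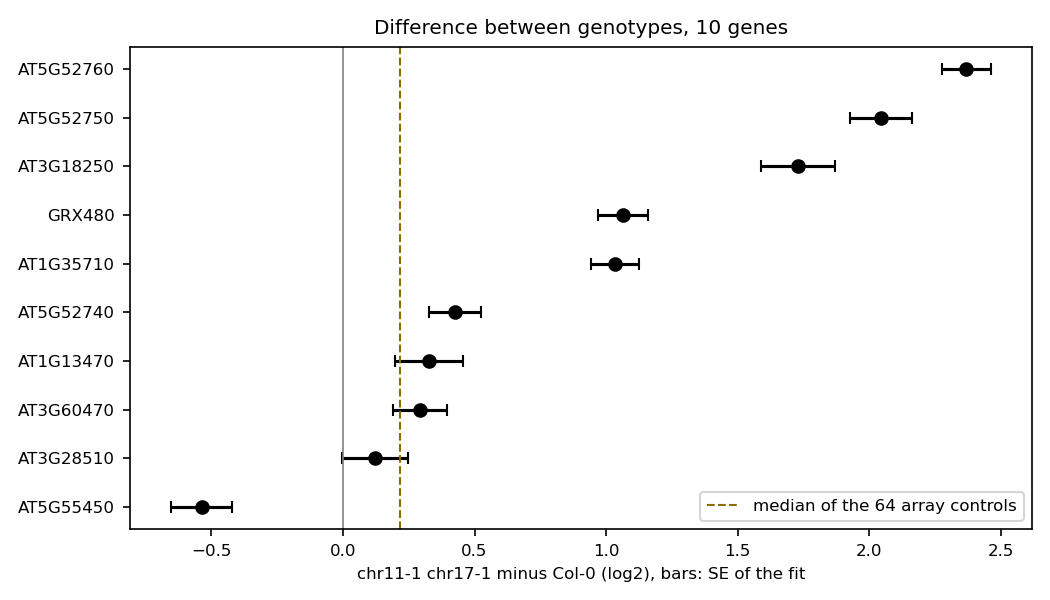
Difference between genotypes (horizontal axis, chr11-1 chr17-1 minus Col-0 on the log2 scale, bars of 1 SE of the limma fit) for the 10 genes, with the largest at the top. AT5G52760, AT5G52750 and AT3G18250 stand at 1.73 to 2.37, GRX480 and AT1G35710 near 1, and 4 genes between 0.12 and 0.42, around the dashed line at 0.22, the median of the 64 array controls.

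Averaged over the 10 genes, mutant replicates 1, 2 and 3 lay at 6.31, 6.26 and 6.21, against 5.39, 5.34 and 5.39 in wild type. Mutant replicate 1 was the highest of its genotype for 5 genes, replicate 2 for 2 and replicate 3 for 3. SDs within a genotype ranged from 0.03 to 0.27, and the differences of 1.03 and more were larger than that spread.

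Of 74 other genes listed for the salicylate and pipecolate pathways, 7 were measured by a named probe set. Of these, 2 rose, 0 fell and 5 did not pass in the limma fit, beside 14.0% of all probe sets higher and 14.7% lower. Of the 7, 3 lay in the lowest 30% of probe sets. Measured were 1 of 12 genes for synthesis and its regulators, 1 of 3 for pipecolate and 3 of 7 for turnover. For receptors and the factors acting with them it was 1 of 16, and for other response targets 1 of 36. The listed genes PR1, ICS1 and NPR1 were not measured, so the 7 are no survey of the pathway. SAG101, a partner of the immune regulator EDS1, had -0.06 (limma adjusted p = 0.764), and AT5G52810, listed for the pipecolate pathway, had -0.05. AT4G26120, listed with the NPR receptors, was dim and had 0.00045. The transcription factor gene WRKY53 had 0.23, with 5.172, 5.200 and 5.341 in the mutant arrays and 4.999, 4.992 and 5.033 in the wild-type arrays. Its arrays did not overlap, but it did not pass (limma adjusted p = 0.0809).

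Both genes that rose belong to salicylate turnover. BSMT1, whose enzyme turns salicylate into its volatile methyl ester, read 4.17, 4.25 and 4.18 in the mutant arrays and 3.44, 3.51 and 3.60 in the wild-type arrays. It rose by 0.68 (SE 0.09, limma adjusted p = 0.000209). UGT76B1, which glucosylates salicylate and related defence signals, read 4.41, 4.17 and 4.23 in the mutant arrays and 3.73, 3.93 and 3.76 in the wild-type arrays, and rose by 0.46 (SE 0.10, limma adjusted p = 0.00583). Both were below the array medians in each genotype. BSMT1 also lay in the lowest 30% of probe sets, the mark of dim signal used here, and UGT76B1 lay above them. Of the lowest 30%, 1.70% passed in either direction. UGT74F1, another salicylate glucosyltransferase, had -0.13 (limma adjusted p = 0.449).

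Among jasmonate and ethylene defence genes, 3 of 14 listed were measured. PDF1.2b, a plant defensin gene, had 8.61, 8.80 and 8.75 in the mutant arrays, against 10.16, 10.27 and 10.14 in the wild-type arrays. It fell 2.78-fold (-1.47, SE 0.09, limma adjusted p = 1.71e-06). Its probe set carries the suffix for cross-hybridisation, so related defensin transcripts may contribute. PDF1.2 itself, measured by another probe set, had 9.92 ± 0.08 in the mutant and 10.05 ± 0.10 in wild type (SD, n = 3 each, limma adjusted p = 0.375). The thionin gene THI2.1 had 0.10 and was dim, with means of 3.92 in the mutant and 3.81 in wild type.

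AT3G28510 belongs to a family of AAA-type ATPases, of which 14 others were measured. In the limma fit 4 rose, 0 fell and 10 did not pass, and 9 of those 10 lay in the lowest 30% of probe sets. The share called, 28.6%, equals that of all probe sets (28.6%), and the family's median difference was 0.05. But 9 of the 14 lay in the lowest 30% of probe sets, where 1.70% passed, against 40.2% of the others. These shares therefore compare unlike mixes of dim and brighter signal. AT1G43910 had 7.61, 7.54 and 7.26 in the mutant arrays, against 5.094, 5.590 and 5.396 in the wild-type arrays, and rose 4.31-fold (limma adjusted p = 2.34e-06). Its rise was much larger than the difference of AT3G28510. AT2G46620 rose by 0.96 (limma adjusted p = 0.000101) and AT5G17760 by 0.84 (limma adjusted p = 0.00374). AT3G28540 rose by 0.37 (limma adjusted p = 0.0143), which was lost without wild-type replicate 3 (0.35, adjusted p = 0.0561).

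**Figure D4:**
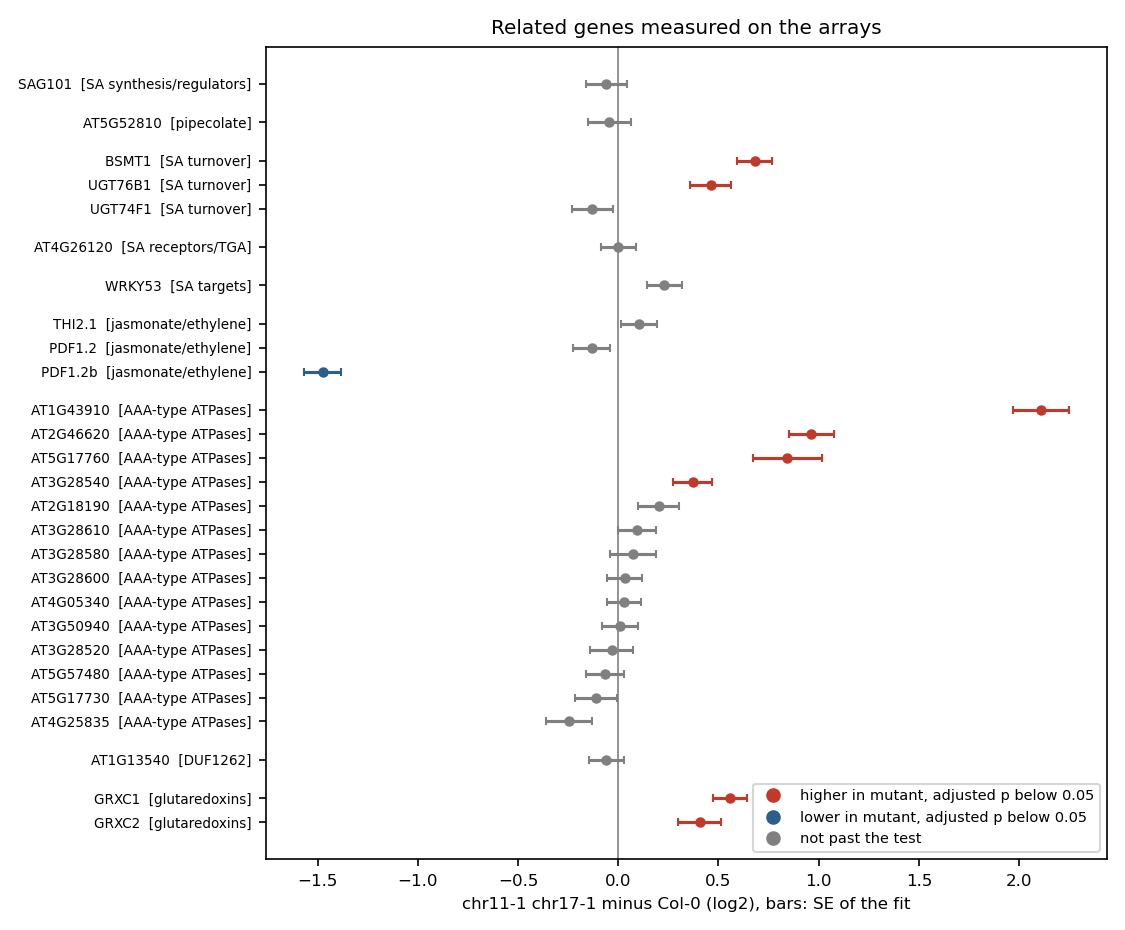
Difference between genotypes (horizontal axis, chr11-1 chr17-1 minus Col-0 on the log2 scale, bars of 1 SE) for the measured genes of the salicylate (SA), pipecolate and jasmonate or ethylene lists and of 3 protein families of the 10 genes. Red points rose and blue points fell in the limma test, and grey points did not pass; PDF1.2b at -1.47 and AT1G43910 at 2.11 are the ends of the range.

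The nearest measured genes on each side of the 10 genes, 3 per side, gave 48 neighbours. Since genes with no named probe set were passed over, those listed as protein-coding lay 1 to 14 protein-coding genes away. AT1G35650, AT1G35663, AT1G35740, AT1G35770 and AT5G55420 were not so listed and have no such distance. Of the 48, 11 rose, 4 fell and 33 did not pass, with a median difference of 0.04. The share called, 31.2%, is close to the 28.6% of all probe sets. AT3G28500, directly beside AT3G28510, is a gene of the acidic ribosomal P-protein family. It had 10.03, 10.16 and 9.99 in the mutant arrays, against 4.56, 4.29 and 4.71 in the wild-type arrays, and rose 46.5-fold (5.54, SE 0.12, limma adjusted p = 2.75e-09). AT3G28510 itself differed by 0.12, and AT3G28520 on its other side by -0.03, both at a dim level. A gene with a very large rise thus stood beside 1 of the members with no detectable difference.

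AT3G60470, which was dim, also lay near genes that moved more than it did. AT3G60490, which was dim as well, and AT3G60510, on 1 side of it, had smaller differences of 0.02 and 0.09. AT3G60450 rose by 1.18 (limma adjusted p = 3.21e-05) and AT3G60420 by 0.97 (limma adjusted p = 5.23e-05), or by 0.55 when its probe sets were averaged, while AT3G60440 fell by 0.64 (limma adjusted p = 0.0004). AT3G60480 rose by 0.33 (limma adjusted p = 0.0475). That call was lost in 7 of the alternatives, 4 of them single arrays left out (mutant replicates 1 and 3, wild-type replicates 1 and 3). On the sides of GRX480, AT1G28410 and AT1G28570, 7 and 9 protein-coding genes away, rose by 0.55 and 0.73 (limma adjusted p = 0.00119 and 0.0027), while the measured genes nearest to it on either side, AGL59 and AT1G28510, had 0.05 and -0.29.

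Around AT5G55450, the signs were mixed. AT5G55530, 10 protein-coding genes away, rose by 0.57 (limma adjusted p = 0.000822). AT5G55380 rose by 0.41 (limma adjusted p = 0.0292) and AT5G55400 fell by 0.44 (limma adjusted p = 0.016). AT5G55380 no longer passed when any array but wild-type replicate 2 was left out (highest adjusted p = 0.117), and AT5G55400 no longer passed without mutant replicate 2 or wild-type replicate 3 (highest adjusted p = 0.0687). Near the remaining members, AT1G35780 rose by 0.86 (limma adjusted p = 0.000135), AT3G18280 rose by 0.40 (limma adjusted p = 0.00781) and AT1G13460 fell by 0.65 (limma adjusted p = 0.00284).

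**Figure D5:**
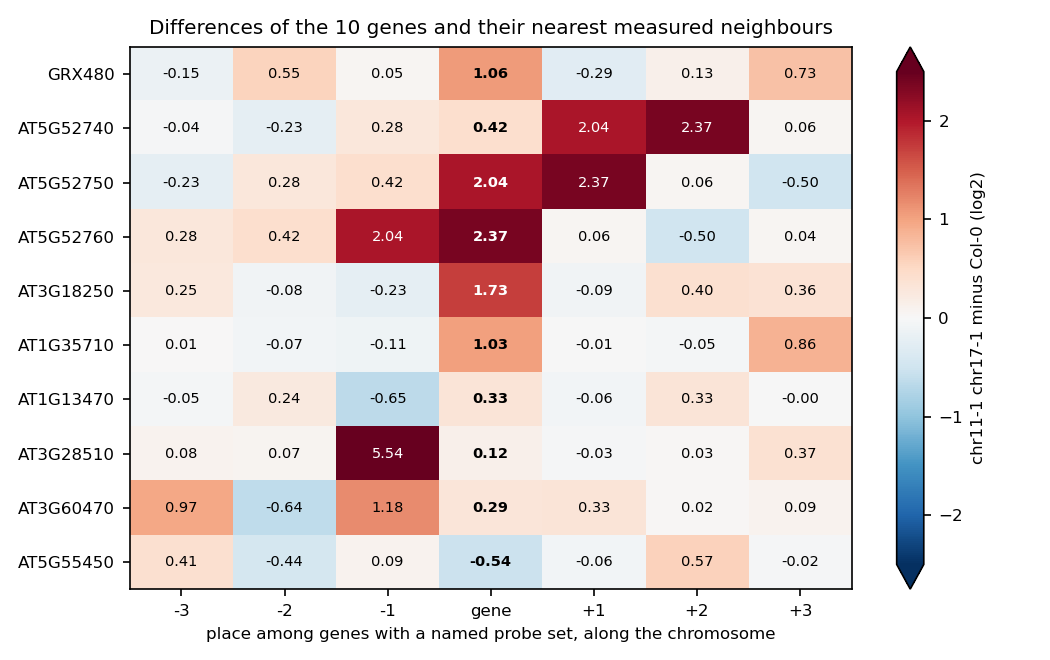
Difference between genotypes (colour and printed value, chr11-1 chr17-1 minus Col-0 on the log2 scale) of each of the 10 genes (centre column) and of the 3 nearest genes with a named probe set on each side, in gene order. The adjacent genes AT5G52750 and AT5G52760 form a block at 2.04 and 2.37, and AT3G28510 at 0.12 sits beside AT3G28500 at 5.54 (beyond the colour scale). In the centre column GRX480, AT3G18250 and AT1G35710 stand at 1.06, 1.73 and 1.03. The other neighbours that are not among the 10 genes run from -0.65 (AT1G13460) to 1.18 (AT3G60450).

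The mean profile of the 10 genes over the 6 arrays, each gene taken minus its own mean, was compared with that of 13323 other genes by the root-mean-square distance on the log2 scale. The 5 nearest were AT1G52200 (0.0436), AT3G05500 (0.0481), AT3G13350 (0.0487), AT4G38490 (0.0502) and AT3G54200 (0.0556). Their differences between genotypes, 0.84 to 0.95, sit near the members' mean, which follows from choosing them by distance to that profile. The profile is an average over genes with unlike differences, so single members can lie far from it. The members themselves were farther from that profile, from 0.103 for AT1G35710 and 0.141 for GRX480 to 0.726 for AT5G55450 and 0.745 for AT5G52760.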

How the data were processed

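Leaf RNA of 6 samples was measured on 6 Affymetrix ATH1 arrays. The authors deposited 1 log2 value for each probe set and array. The submitters' processing notes list RMA and Partek, with no version. Settings and raw images were not used here. Of 22810 probe sets, the 64 Affymetrix controls were left out. Names came from a probe table with 13513 probe sets of 1 gene, 503 of several and 8730 tested probe sets unnamed, and 13436 of the 13513 were found in a TAIR10.1 gene table, used for names and gene order. A gene was represented by its probe set with the highest mean.

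The genotypes were tested in R 4.3.3 by limma 3.58.1 (lmFit, eBayes, two-sided, mutant minus wild type, Benjamini-Hochberg over 22746 probe sets, threshold 0.05), after a test on simulated data. No filter on low values was applied. The members and lists were chosen with earlier results of these data known. From each of 9 lists up to 4 genes past the threshold are named, or the 2 largest differences where none passed. Also named are the neighbours of the adjacent genes, other neighbours past the threshold and the 5 nearest profiles. Further genes were named after their values were seen. Families came from locus codes, and the glutaredoxins from the word in the gene table. Replicate numbers did not pair the arrays (correlation of deviations -0.30, -0.17 and -0.17). Promoter and protein sequences were not analysed here. Figures used Python 3.11.15 and matplotlib 3.10.9.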

Additional observations from a re-analysis of the deposited data

How the results depend on the processing

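All alternatives were planned. In each of them the 10 members, where tested, kept their direction. A trended robust prior, the replicate block and the filters on probe sets change the error of a difference, not the difference itself. Leaving out 1 of 3 arrays can move a mean by only part of its SD, so small shifts there are no check of the values. Over all probe sets, 2649 to 2937 were higher and 2664 to 3395 lower when 1 array was left out, and with the replicate block 2768 were higher and 2914 lower. The members' median difference of 0.73 became 1.05 without the lowest 30% of probe sets, since that leaves out AT3G28510 and AT3G60470, and lay between 0.70 and 0.75 with 1 array left out. With the replicate block 6 members were past the test as higher and 1 as lower, as without it, and with 1 array left out 6 to 7 and 1 (AT3G60470 was added without mutant replicate 2 and AT1G13470 without mutant replicate 3). It was also 7 and 1 with each array centred on its median and with a trended robust prior, where AT3G60470 was added. Among all probe sets, 3292 were higher and 3284 lower with each array centred, and 3180 and 3377 with that prior. Without any alternative these were 3178 (14.0%) and 3333 (14.7%). Since the members were picked with this contrast known, their counts and added calls are description and no test of them. Of list genes, 8 rose and 1 fell with all arrays and 7 to 8 rose and 1 to 2 fell with 1 left out (AT4G25835 was added without mutant replicate 1). Without probe sets with a cross-hybridisation suffix 0 fell, since PDF1.2b is then not tested. Without the lowest 30% of probe sets 7 list genes rose, since BSMT1 is then not tested, and at an adjusted p of 0.01 it was 6. Of neighbours, 8 to 12 rose and 3 to 4 fell with 1 array left out, against 9 and 4 with the replicate block. Among other named genes, alternatives left direction and call as they were in 478 values, while 17 lost the call, 5 gained it and 10 changed sign. None of the genes that changed sign passed the test with all arrays. With 1 array left out, their differences ranged between -0.12 and 0.011 for SAG101, -0.15 and 0.028 for AT5G52810, -0.038 and 0.036 for AT4G26120, -0.13 and 0.049 for AT5G52690, -0.038 and 0.21 for AT5G52770, and -0.034 and 0.086 for AT5G52790. The promoter window was not run, as no promoter sequence was used here. The number of arrays, 3 a genotype, and dim signal limit what can be detected.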
